A study of Mus musculus with 32 samples.

Results

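The respiratory chain and ATP synthase of the inner mitochondrial membrane were followed through nuclear genes for their subunits. All genes were taken whose symbol starts with Nduf, Sdh (Sdha to Sdhd), Uqcr, Cox4 to Cox8 or Atp5, without the muscle isoforms Cox6a2, Cox7a1 and Cox8b. The rule sorts genes by name, but it was set with earlier results of these data known. It gave 68 of the 8251 genes with a symbol of their own on the array, measured by 94 of 12422 probe sets. Complex I had 38 probe sets for 29 genes, complex II had 4 for 4, complex III had 7 for 7, complex IV had 19 for 12 and ATP synthase had 22 for 14. The symbol rule also took in Ndufaf1 and Ndufaf4, 2 assembly factors of complex I that are not subunits, with 4 probe sets. Another 10 probe sets were shared between such a gene and further genes and were left out.

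RNA came from C2C12 cells, mouse skeletal myoblasts in culture that stop dividing and fuse into myotubes once growth medium is exchanged for differentiation medium, and was measured on 32 Affymetrix arrays in 2 separately scaled arms. The TSA arm held 20 arrays, 2 for each of 10 groups. Its groups were untreated cells (control) and cells given trichostatin A (TSA), which blocks zinc-dependent histone deacetylases, each sampled in growth medium (called 0 h) and at 4, 12, 24 and 48 h of differentiation medium. The Sir2 arm held 12 arrays, 3 for each of 4 groups: cells with the pHan vector and cells with pHan bearing Sir2, a deacetylase that needs NAD and corresponds to mouse Sirt1, each at 12 and 36 h of differentiation. The dose of TSA, its washout and the way the vector entered the cells are not stated in the labels, and no genotype other than the C2C12 line is given. Whether replicate arrays came from separate cultures is not stated either, so the p-values describe no more than the spread among these arrays.

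Complex I (NADH dehydrogenase) and complex II (succinate dehydrogenase, also an enzyme of the tricarboxylic acid cycle) pass electrons to ubiquinone, complex III hands them to cytochrome c, and complex IV (cytochrome oxidase) gives them to oxygen. Complexes I, III and IV pump protons, and ATP synthase uses the returning protons to make ATP. Muscle depends on this chain for sustained work, and differentiating myoblasts are known for building up mitochondria and for exchanging some cytochrome oxidase subunits for muscle isoforms. The subunits encoded in mitochondrial DNA were not measured, so every value below is from a nuclear gene.

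The promoters of 56 of the 68 genes were matched in RefSeq (build GRCm38.p6) over the 250 bases before the annotated start, and 5 are shown, picked after their values were seen because their genes carry the results below: Uqcr11 and Uqcrh were higher with TSA at both 0 and 48 h, Cox6a1 was higher at 0 h, and the TSA effect turned round for Cox7a2l and Sdhd. Capitals mark matches to the motifs searched, and each sequence runs 5′ to 3′ on the minus strand, on which all 5 genes lie. The Ets motif is bound by factors such as GABPA, and NRF1 is a nuclear regulator of respiratory genes.
Uqcr11, chr10:80406822-80407071, with 1 Ets match: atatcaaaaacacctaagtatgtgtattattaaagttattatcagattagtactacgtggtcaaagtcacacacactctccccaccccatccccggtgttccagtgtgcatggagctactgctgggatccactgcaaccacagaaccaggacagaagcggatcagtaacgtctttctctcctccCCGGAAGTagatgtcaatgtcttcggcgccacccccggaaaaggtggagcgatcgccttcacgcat
Uqcrh, chr4:116075071-116075320, with 1 Ets match on the other strand: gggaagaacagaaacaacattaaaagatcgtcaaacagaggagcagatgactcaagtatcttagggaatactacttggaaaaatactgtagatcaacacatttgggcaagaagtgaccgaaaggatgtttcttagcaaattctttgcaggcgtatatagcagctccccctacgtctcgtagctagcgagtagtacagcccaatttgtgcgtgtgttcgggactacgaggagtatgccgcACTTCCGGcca
Cox6a1, chr5:115348959-115349208, with overlapping NRF1 core matches on both strands: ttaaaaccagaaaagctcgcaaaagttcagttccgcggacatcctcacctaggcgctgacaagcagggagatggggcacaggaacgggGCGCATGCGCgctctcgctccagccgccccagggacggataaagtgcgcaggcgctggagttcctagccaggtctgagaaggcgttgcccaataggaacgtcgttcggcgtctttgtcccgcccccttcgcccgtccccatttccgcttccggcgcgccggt
Cox7a2l, chr17:83514334-83514583, with no match: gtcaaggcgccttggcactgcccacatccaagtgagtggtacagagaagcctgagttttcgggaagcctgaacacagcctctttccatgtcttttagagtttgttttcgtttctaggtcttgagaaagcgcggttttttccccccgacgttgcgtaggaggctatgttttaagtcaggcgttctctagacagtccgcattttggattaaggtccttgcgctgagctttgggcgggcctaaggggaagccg
Sdhd, chr9:50603850-50604099, with no match: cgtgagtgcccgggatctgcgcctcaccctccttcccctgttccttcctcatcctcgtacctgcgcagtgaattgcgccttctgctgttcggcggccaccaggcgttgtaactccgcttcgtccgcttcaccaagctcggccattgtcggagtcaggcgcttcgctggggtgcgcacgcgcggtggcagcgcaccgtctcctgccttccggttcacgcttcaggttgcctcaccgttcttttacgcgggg

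Both strands were searched for 5 motifs, and no match of one motif overlapped a match of another. Genes on chromosome 18 were left out of the search, among them the members Atp5a1 and Ndufa2. The Ets motif CCGGAAGT was found in 2 of the 56 member promoters (3.57%), those of Uqcr11 and Uqcrh. It was in 3.23% of all 27025 genes with a RefSeq promoter searched and in 5.72% of the 6576 of them on the array. The NRF1 core GCATGCGC was found in 8 (14.3%), those of Atp5g2, Atp5k, Atp5l, Cox6a1, Ndufa6, Ndufa8, Ndufaf4 and Sdhb, against 2.56% of all promoters and 4.53% of those on the array. The motif of the estrogen-related receptors, CAAGGTCA, was in the Atp5l promoter (1.79% of members, 1.51% of all) and the YY1 motif AAGATGGCG in that of Atp5j (1.79% and 0.71%). The muscle E-box CAGCTG was in 3, those of Ndufa8, Ndufb10 and Ndufv2 (5.36%, against 14.7% of all). These are matches of letters in a window and were not tested for binding.

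Arrays of 1 group correlated at 0.911 to 0.966 (Spearman) in the TSA arm and at 0.970 to 0.978 in the Sir2 arm. Sirt1 was used to check the Sir2 labels. Its intensity was 9.48 to 20.3 with vector and 37.5 to 48.7 with Sir2 at 12 h. These groups did not overlap (log2 change 1.14 ± 0.27, adjusted p = 0.0316). At 36 h the intensity was 19.6 to 39.4 with vector and 35.8 to 80.5 with Sir2. Here the groups overlapped (log2 change 0.77 ± 0.27, adjusted p = 0.106). The probe set is dim, and its vector means, 14.7 at 12 h and 32 at 36 h, lay below or near the 31.1 needed for testing. The Sir2 arrays thus helped it into the test, and its p-values are not read as support for the labels. All 12 markers of myoblasts and myotubes were measured, and their summed intensity was 10623 to 12530 in control cells at 0 h and 130236 to 137903 at 48 h, with 14390 to 14503 and 182066 to 208567 in TSA cells. Myf5 went the other way, at 1268 to 1763 in control cells at 0 h and 931 to 1005 at 48 h. In TSA cells Myf5 was at 3004.5 to 3111.7 and then at 1104 to 1125. Among markers of other cell types, the summed intensity of the 4 of 6 neuron markers that were measured was 8249 to 8696 in control cells at 0 h, 3949 to 4379 in control cells at 48 h, 7193 to 7305 in TSA cells at 0 h and 8725 to 12411 in TSA cells at 48 h. Most of that sum was the tubulin gene Tubb3, while the synaptic gene Snap25 lay below 0 on every array of these 4 groups. The 6 endothelial markers summed to 476 to 973 in control cells at 0 h and 1339 to 1788 at 48 h, and to 745 to 974 and 919 to 1203 in TSA cells. Most of that sum was Kdr, while Cdh5 and Vwf lay below 0 on every control array at 0 and 48 h. The 3 of 5 adipocyte markers measured summed to 1045 to 1184 and 1165 to 1370.0 in control cells at 0 and 48 h, and to 1161 to 1315 and 646 to 887 in TSA cells, most of it Lep. The 7 of 8 leukocyte markers measured summed to between 1090 and 2277 in every group of the TSA arm. The parts of these cell states in the results below were not tested, and in RNA of whole cultures fewer cells of a kind and less RNA per cell cannot be told apart.

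In control cells, 12 of 30 complex I probe sets rose over 48 h of differentiation and 0 fell. Complexes III and IV and ATP synthase had members that passed in both directions, and complex II had 1 that fell and 0 that rose. Values are array intensities, log2 changes are given with their standard error, and a probe set passed at a Benjamini-Hochberg adjusted p under 0.05 over all 7453 probe sets tested in an arm with limma. Of the 94 member probe sets, 74 (64 genes) were bright enough to be tested in the TSA arm, and 20 were not. Between 0 and 48 h, 27 of the 74 passed (36.5%), 21 higher and 6 lower, against 35.3% of all probe sets tested, of which 16% were higher and 19.3% lower. The median log2 change was 0.15 over the members and 0.01 over all probe sets tested. Thus the share that passed was near that of the whole array, with more of the passing members on the higher side.

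Cox7a2l, which helps to join complexes III and IV into supercomplexes, was at 4473 and 4576 at 0 h and at 9720.1 and 10139 at 48 h. Both 48 h arrays were above both 0 h arrays, and the log2 change was 1.11 ± 0.11 (adjusted p = 8.63e-06). Uqcrq, a small subunit of complex III, was at 11659.9 and 9846 and then at 21576 and 24138, again without overlap (1.08 ± 0.13, adjusted p = 2.72e-05). Ndufa7, an accessory subunit of complex I, was at 9463 and 8361 and then at 16502 and 16564 (0.88 ± 0.10, adjusted p = 2.59e-05). The 48 h arrays agreed closely for this gene. Ndufa3, another accessory subunit of complex I, was at 2203 and 1981 and then at 3844 and 3846 by its brighter probe set, 96915_f_at (0.84 ± 0.11, adjusted p = 0.000102), and its dim one rose too.

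The core subunits Ndufs1, Ndufs3, Ndufv1 and Ndufv2 lie in the hydrophilic arm of complex I, which takes electrons from NADH. Ndufs3, a core subunit there, was at 4952 and 4581 at 0 h and at 7288 and 6782 at 48 h (0.55 ± 0.11, adjusted p = 0.00189). Ndufv1, the flavin-carrying core subunit, was at 9364 and 8474 and then at 13113 and 12151 (0.50 ± 0.10, adjusted p = 0.00202). Neither pair of groups overlapped. The core subunit Ndufv2 (probe set 94062_at, 0.49) and the small Ndufv3 (0.66) also rose, whereas the iron-sulphur core subunit Ndufs1 had a log2 change of -0.02 ± 0.18 (adjusted p = 0.957) and did not pass. Ndufab1, the acyl carrier protein of mitochondria as well as a subunit of complex I, rose by 0.79. The remaining complex I genes that rose were Ndufa6, Ndufa13, Ndufb9 and Ndufb10.

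Complex II had no member that rose, and ATP synthase was split. Sdhd, a membrane anchor of succinate dehydrogenase, was at 8465 and 7861 at 0 h and at 5381 and 5717 at 48 h, with both later arrays lower (-0.55 ± 0.13, adjusted p = 0.00474). The flavoprotein Sdha (-0.43 ± 0.29), the iron-sulphur subunit Sdhb (0.33 ± 0.14) and the other anchor Sdhc (-0.11 ± 0.12) did not pass. In ATP synthase, the catalytic-head subunit Atp5a1 was at 16232 and 14352 and then at 11601 and 9604 (-0.53 ± 0.13, adjusted p = 0.00751), and both later arrays were lower. Atp5j, a subunit of the stalk that holds the head, was at 4083 and 3615 and then at 2436 and 2735 (-0.55 ± 0.12, adjusted p = 0.0038), and the small membrane subunit Atp5mpl fell by 0.52 on the log2 scale. Against these, 2 probe sets of Atp5d, a subunit of the rotating stalk, rose (1.07 for 161494_f_at and 0.67 for 161145_f_at). A dim probe set of Atp5g2, a gene for the proton-carrying ring, rose as well.

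Complexes III and IV were split within themselves. In complex III Uqcr11 was at 3279 and 2728 at 0 h and at 1589 and 1745 at 48 h, so this small subunit fell (-0.80 ± 0.17, adjusted p = 0.00259) while Uqcrq, Uqcr10 (0.61) and the core protein Uqcrc2 (0.68) rose and the core protein Uqcrc1 (-0.07 ± 0.11) did not pass. In complex IV the related genes Cox7a2 and Cox7a2l went opposite ways. Cox7a2, the form of the subunit found outside muscle, was at 12006 and 10802 and then at 8116 and 7735 (-0.52 ± 0.15, adjusted p = 0.0159). Cox5b (0.48) and a dim probe set of Cox6b1 (0.88) rose, and Cox4i1, a large nuclear subunit of complex IV, did not pass by either of its probe sets (0.36 and 0.35).

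These counts moved with single arrays. Leaving out control 0 h replicate 1 left 16 calls, leaving out replicate 2 left 15, and fitting only the 4 arrays compared left 11, while 11 of the 27 calls were kept whichever array was left out: those of Cox7a2l, Ndufa7, Uqcrq, Ndufa3, Ndufab1, Ndufs3, Ndufv1, Atp5d (161494_f_at), Uqcr11, Atp5j and Sdhd.

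**Figure D1:**
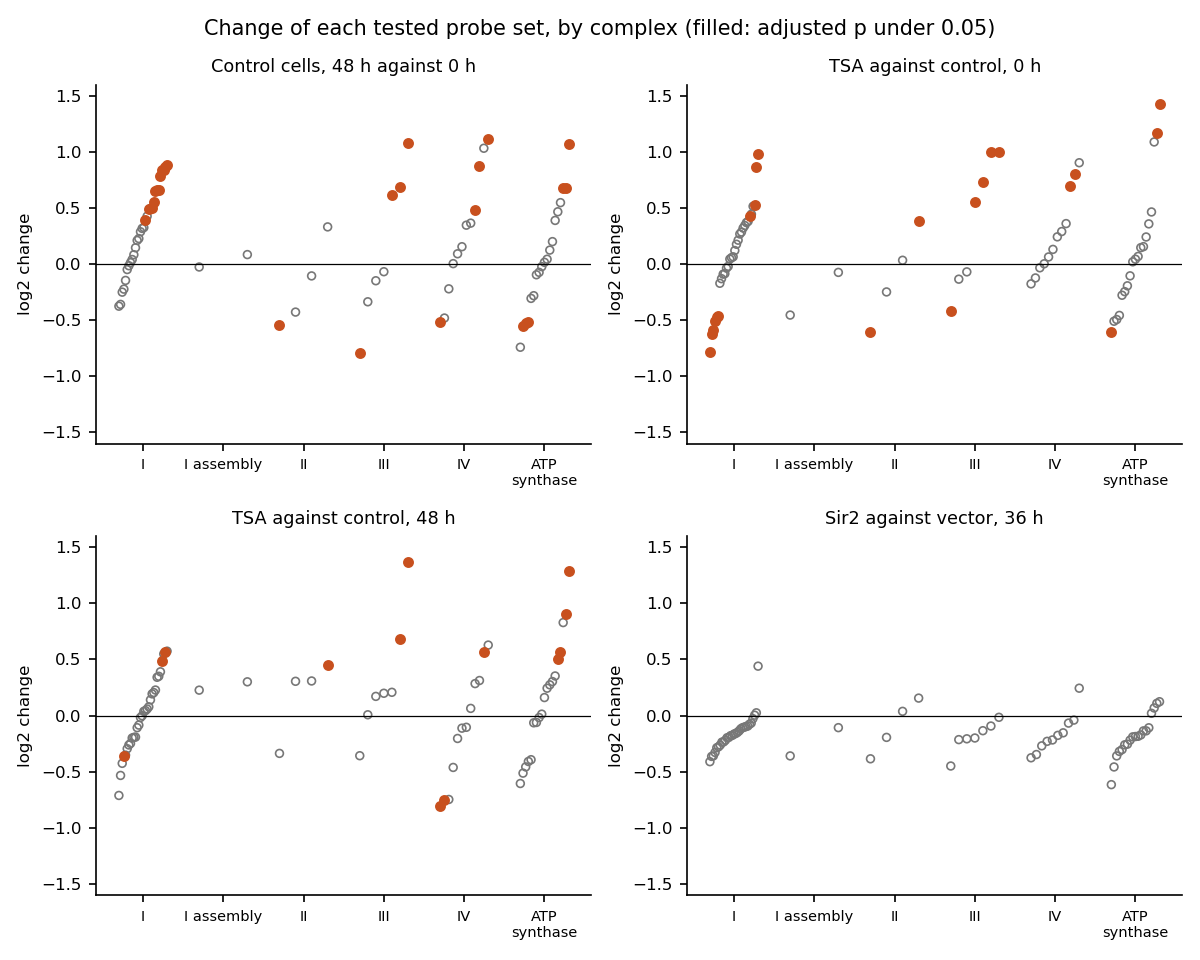
Log2 change of every member probe set tested, by complex (x axis), for control cells at 48 h against 0 h, TSA against control at 0 and 48 h, and Sir2 against vector at 36 h; filled points passed at an adjusted p under 0.05. In control cells 12 of 30 complex I probe sets rose and 0 fell, whereas ATP synthase had 3 in each direction.

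Fewer members passed at earlier times. At 4 h in differentiation medium 1 of 74 members passed (1.35%, against 2.05% of all probe sets), a dim probe set of Atp5g2 at 113 and 90.6 before and 386 and 318 after (1.03 ± 0.22, adjusted p = 0.0366). At 12 h 1 passed (1.35%, against 5.23%), Sdhb, at 6417 and 5632 before and 8435 and 9537 after (0.57 ± 0.14, adjusted p = 0.0411). Neither pair of groups overlapped, but both calls were lost when any one of the arrays compared was left out. At 24 h 6 passed, all higher (8.11%, against 12.9%): Uqcrq (0.61 ± 0.13, adjusted p = 0.00648), Cox7a2l (0.52 ± 0.11, adjusted p = 0.00932), Ndufv3 (0.86 ± 0.19, adjusted p = 0.00987), Ndufa3 (96915_f_at, 0.51), Ndufab1 (0.52) and Ndufa7 (0.34). At 48 h, in a comparison that shares the 0 h arrays, the log2 changes of these 6 probe sets were 1.08, 1.11, 0.66, 0.84, 0.79 and 0.88. The count at 24 h was 2 without control 0 h replicate 1, 1 without control 0 h replicate 2, 0 without control 24 h replicate 3, 2 with replicate numbers as a block and 0 in a fit of only the 4 arrays compared.

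**Figure D2:**
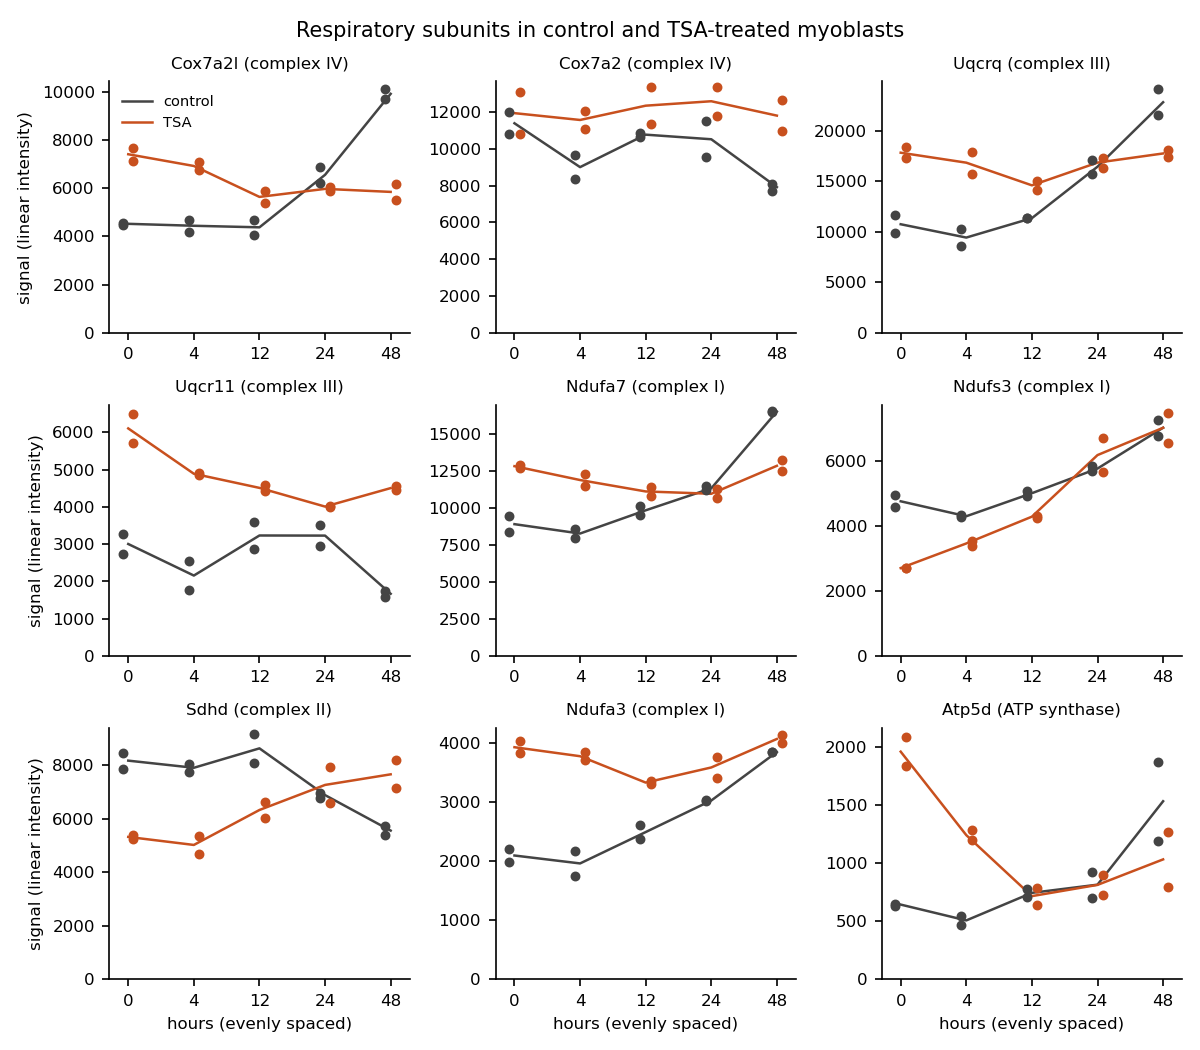
Intensity on each array of the TSA arm for 9 members against hours (0 h is growth medium, times evenly spaced), with points for arrays and a line through the group means. Cox7a2l and Uqcrq of control cells end above TSA cells after starting below them, and Uqcr11 stays higher with TSA on both arrays at every time.

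In growth medium, before differentiation began, some subunits were higher with TSA and others lower. At 0 h 22 of 74 members passed (29.7%), 13 higher and 9 lower, against 17.9% of all probe sets, 7.9% higher and 10% lower. The median log2 difference was 0.06 over the members and 0.00 over all. In complex III 4 of 7 were higher and 1 lower, in complex I 4 of 30 were higher and 6 lower, and in complex IV 2 of 12 were higher and 0 lower. ATP synthase had 2 higher and 1 lower of 19, and complex II 1 of each of 4. Of the 4 neuron markers measured, the neurofilament gene Nefl was at 91.1 to 189 in control cells and at 556 to 675 with TSA at this time, and Gap43 at 191 to 217 and at 354 to 525. Tubb3 was the other way round, at 7843 to 8414 in control cells and at 6105 to 6283 with TSA, and Snap25 was below 0 in both groups. The part of these markers in the differences was not tested.

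Uqcr11 was at 3279 and 2728 in control cells and at 6499 and 5716 with TSA (0.99 ± 0.17, adjusted p = 0.00116). Uqcr10, another small subunit of complex III, was at 6699.8 and 5459 without and 11251 and 13193 with TSA (0.99 ± 0.15, adjusted p = 0.000474). In both genes the TSA arrays lay above the control arrays, as they did for Uqcrq (0.73) and for Uqcrh, the hinge protein of the complex (0.56). Atp5d was at 652 and 634 and at 2086 and 1839 by 161494_f_at (1.43 ± 0.22, adjusted p = 0.000666), and at 1146 and 923 and at 2539 and 2436 by 161145_f_at (1.17 ± 0.17, adjusted p = 0.000343). Another bright probe set of this gene, 162343_f_at, was at 1014 and 1906 and at 4439 and 2185 and did not pass (adjusted p = 0.122), and the dim 94279_at had a difference of -0.49 ± 0.38. Cox6a1, the form of this cytochrome oxidase subunit found outside muscle, was at 10646 and 11192 in control cells and at 20284 and 18063 with TSA (0.80 ± 0.14, adjusted p = 0.00138). Ndufa3 was at 4026 and 3825 with TSA (0.87 ± 0.11, adjusted p = 0.000215), near its level in differentiated control cells. Ndufv3 (0.98), Cox7a2l (0.70), Ndufa7 (0.52) and Ndufv1 (0.43) were higher as well.

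On the lower side stood 6 genes of complex I and 3 others. Ndufs3 was at 4952 and 4581 in control cells and at 2695 and 2719.9 with TSA (-0.78 ± 0.11, adjusted p = 0.000325). Sdhd was at 5384 and 5241 with TSA, below both control arrays (-0.61 ± 0.13, adjusted p = 0.00457). Ndufb5, an accessory subunit of the membrane arm, was at 8628 and 7695 and at 5869 and 5843 (-0.47 ± 0.11, adjusted p = 0.00804). No control array was as low as a TSA array for these 3 genes. Ndufa9, a subunit at the joint of both arms of complex I, was lower as well (-0.47 ± 0.13, adjusted p = 0.0221). Ndufs1 (-0.63), Ndufb8 (-0.50), Ndufa5 (-0.59), the stalk subunit Atp5o (-0.61) and Uqcrb (-0.42) were lower too. In complex II, Sdhc was higher (0.38 ± 0.12, adjusted p = 0.046) while Sdhd was lower, and Sdha (-0.25) and Sdhb (0.03) did not pass.

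The count at 0 h was 14 without either control 0 h array, 13 without TSA 0 h replicate 1 and 13 when only the 4 arrays compared were fitted. Of the 22 calls 12 were kept whichever array was left out, and these were Ndufa3, Ndufs3, both Atp5d probe sets, Uqcr10, Cox7a2l, Uqcr11, Uqcrq, Cox6a1, Ndufv3, Ndufa7 and Sdhd.

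After 4 h in differentiation medium 13 of 74 members differed with TSA (17.6%), 10 higher and 3 lower, against 11.4% of all probe sets, 5.61% higher and 5.74% lower, with a median log2 difference of 0.16 over the members and -0.04 over all. Uqcr11 was at 2548 and 1765 in control cells and at 4923 and 4858 with TSA (1.15 ± 0.17, adjusted p = 0.000731). Cox6a1 was at 11343 and 9687 and at 21187 and 17285 (0.86 ± 0.14, adjusted p = 0.00153). Every TSA array was above every control array for both. Ndufa3 (96915_f_at, 0.91 ± 0.11, adjusted p = 0.000281), Atp5d (161145_f_at, 1.14 ± 0.17, adjusted p = 0.000731), the Atp5d probe set 161494_f_at, Uqcrq, Cox7a2l, Uqcr10, Ndufv3 and Ndufa7 were also higher. Sdhd was at 8037 and 7756 and at 5356 and 4669.9 and was lower (-0.64 ± 0.13, adjusted p = 0.00513), as were Ndufb5 (-0.39 ± 0.11, adjusted p = 0.0316) and the dim Atp5g2 probe set 92570_at (-0.75 ± 0.22, adjusted p = 0.0492). Median centring of each array gave 10 higher and 1 lower. Of the 13 calls 8 were kept whichever array was left out, and 0 were left when only the 4 arrays compared were fitted.

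At 12 and 24 h few members differed. At 12 h 1 passed (1.35%, against 4.08%), Ndufb5, at 9109 and 9107 in control cells and at 6463 and 6459.8 with TSA (-0.49 ± 0.11, adjusted p = 0.0208). At 24 h 2 passed (2.7%, against 5.94%): Uqcrh was higher, at 11078 and 10955 against 6991 and 7860.1 (0.56 ± 0.14, adjusted p = 0.0288), and Ndufv3 was lower, at 1659.6 and 1742 against 2666 and 3110.3 (-0.72 ± 0.19, adjusted p = 0.044). The groups of these 3 genes did not overlap. Those of Ndufb5 at 24 h did not overlap either, though it did not pass there (adjusted p = 0.105). The call at 12 h was lost without any one array. Median centring left 1 higher and 0 lower at 24 h. At 24 h 0 calls were left without control 24 h replicate 2 or TSA 24 h replicate 2 and 1 without control 24 h replicate 3 or TSA 24 h replicate 3, and both times had 0 when only the 4 arrays compared were fitted.

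At 48 h the share of members that differed with TSA was near that of the whole array. Of 74 members 13 passed (17.6%), 10 higher and 3 lower, against 19.6% of all probe sets, 10.5% higher and 9.1% lower. ATP synthase had 4 higher of 19 and 0 lower, complex III had 2 higher of 7, complex I had 2 higher and 1 lower of 30, and complex IV had 1 higher and 2 lower of 12. Uqcr11 was at 1589 and 1745 in control cells and at 4565 and 4445 with TSA (1.36 ± 0.17, adjusted p = 0.000125). Atp5mpl was at 3893 and 4988 and at 8449 and 8276 (0.90 ± 0.17, adjusted p = 0.00262). Uqcrh was at 6154 and 7305 and at 11383 and 10337 (0.68 ± 0.14, adjusted p = 0.00405). Both TSA arrays were above both control arrays for these genes and for Atp5j, which was at 4059.7 and 3739.5 with TSA (0.57 ± 0.12, adjusted p = 0.00622).

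Cox7a2 was at 10969 and 12673 with TSA and Atp5a1 at 15123 and 14895, and both were higher than in control cells (0.57 and 0.50). Sdhd was at 8176 and 7126 and was higher too (0.45 ± 0.13, adjusted p = 0.0246). The values of these genes between 0 and 48 h in control cells, given above, share the control 48 h arrays. Within TSA cells over the same span, Sdhd rose (0.51) and Uqcr11 (-0.43), Atp5mpl (-0.08), Atp5j (-0.22), Cox7a2 (-0.01) and Atp5a1 (0.25) did not pass. Atp5k, a small membrane subunit (1.29), Ndufb7 (0.48) and Ndufb2 (95132_r_at, 0.57) were higher as well. Cox7a2l was at 9720.1 and 10139 in control cells and at 5507 and 6196 with TSA, so both TSA arrays were lower (-0.75 ± 0.11, adjusted p = 0.00064). Ndufa7 was at 16502 and 16564 and at 12502 and 13221 (-0.36 ± 0.10, adjusted p = 0.027), and the dim Cox4i1 probe set 93788_at was at 355 and 448 and at 269 and 94.9 (-0.81 ± 0.25, adjusted p = 0.0433), both without overlap. The count was 8 without TSA 48 h replicate 1, 7 without TSA 48 h replicate 2 and 0 when only the 4 arrays compared were fitted. The calls of Uqcr11, Cox7a2l, Atp5mpl, Uqcrh and Atp5j were kept whichever array was left out.

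**Figure D3:**
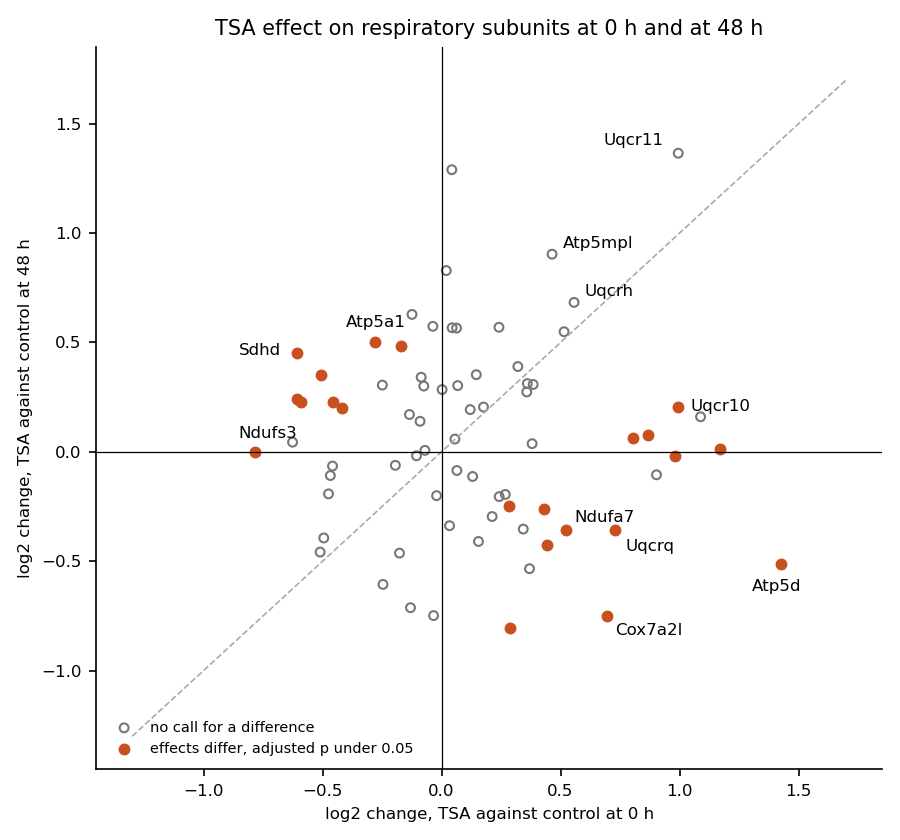
Log2 difference of TSA against control at 48 h plotted against that at 0 h for the 74 members tested, with filled points where the difference of both effects passed at an adjusted p under 0.05 and a dashed line where both effects are equal. Cox7a2l lies at 0.70 (x) and -0.75 (y), and Sdhd at -0.61 and 0.45.

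The TSA effect itself differed between 48 and 0 h for 22 of 74 members (29.7%), with 9 shifted upward and 13 downward, against 20.3% of all probe sets, 11.3% upward and 9.08% downward. This is a test of the difference of both effects and rests on 8 arrays. Cox7a2l shifted by -1.45 ± 0.16 (adjusted p = 5.24e-05), from 0.70 at 0 h to -0.75 at 48 h, and both of those effects had passed. Ndufa7 shifted by -0.88 ± 0.14 (adjusted p = 0.000993) and likewise passed in opposite directions at both times. Sdhd shifted the other way, by 1.06 ± 0.18 (adjusted p = 0.00118), from -0.61 to 0.45. These 3 genes were the members that passed in opposite directions at 0 and 48 h. Atp5d (161494_f_at, -1.94 ± 0.31, adjusted p = 0.000867) and Uqcrq (-1.09 ± 0.18, adjusted p = 0.000977) had passed at 0 h and did not pass at 48 h (-0.51 and -0.36). The Atp5d probe set 161145_f_at also shifted downward (-1.16 ± 0.23, adjusted p = 0.00384). Its probe sets 162343_f_at (-0.93 ± 0.63, adjusted p = 0.338) and the dim 94279_at (0.10 ± 0.54, adjusted p = 0.924) did not pass. Ndufs3 (0.78 ± 0.16, adjusted p = 0.00353) and Ndufb8 (0.85 ± 0.20, adjusted p = 0.00815), which were lower with TSA at 0 h, were no longer called at 48 h, and Atp5a1 shifted by 0.78 ± 0.19 (adjusted p = 0.0102). By contrast Uqcr11 was higher with TSA at both times and its shift did not pass (0.37 ± 0.24, adjusted p = 0.307). The count was 12 and 13 without control 0 h replicate 1 and 2, 14 and 12 without TSA 0 h replicate 1 and 2, 12 without TSA 48 h replicate 2 and 8 when only the 8 arrays were fitted, and 11 of the 22 calls were kept whichever array was left out.

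Within TSA cells, which started from other levels, 20 of 74 members passed between 0 and 48 h (27%), 15 higher and 5 lower, against 26.4% of all probe sets, 12.1% higher and 14.2% lower. Ndufs3 was at 2695 and 2719.9 at 0 h and at 6563 and 7504 at 48 h (1.33 ± 0.11, adjusted p = 1.86e-06). Ndufab1 was at 2232 and 2089 and then at 3933 and 3870.2 (0.81 ± 0.14, adjusted p = 0.00103). No 0 h array was as high as a 48 h array for either gene. The assembly factor Ndufaf1 was at 348 and 294 and then at 690.4 and 595 (0.77 ± 0.15, adjusted p = 0.0027), and Ndufb8 rose by 0.63 ± 0.14. The other members that rose were Uqcrc2, Atp5o, Ndufc1, Sdhd, both Ndufb2 probe sets tested, Uqcrb, Ndufa13, Ndufs1, Ndufb5 and Atp5e, by 0.37 for Ndufb5 up to 0.76 for Uqcrc2. Cox6a1 was at 20284 and 18063 and then at 12187 and 10734 (-0.74 ± 0.14, adjusted p = 0.00166), with both later arrays lower, and Atp5d (161494_f_at, -0.87; 161145_f_at, -0.48), the dim Cox4i1 probe set (-0.75) and Cox7a2l (-0.34 ± 0.11, adjusted p = 0.0452) fell. Median centring gave 15 higher and 2 lower. The count was 12 without TSA 0 h replicate 1, 8 without TSA 0 h replicate 2 and 4 when only the 4 arrays compared were fitted, and 5 calls were kept whichever array was left out, those of Ndufs3, Ndufab1, Cox6a1, Ndufaf1 and Ndufb8.

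Averaged over all 5 times, TSA cells had 25 of 74 members different from control cells (33.8%), 18 higher and 7 lower, against 22% of all probe sets, 10.2% higher and 11.9% lower. Complex III had 4 higher of 7 and 0 lower, complex IV 4 higher of 12 and 0 lower, complex I 5 higher and 3 lower of 30, and ATP synthase 5 higher and 3 lower of 19. Uqcr11 had the largest mean difference of those called (0.86 ± 0.07, adjusted p = 5.43e-06), and its TSA arrays lay above its control arrays at each time, also at 12 h (4596 and 4425 with TSA, 3599 and 2866 without) and at 24 h (4023 and 3995 with, 3505 and 2954 without), where the single-time tests did not pass. Ndufa3 (96915_f_at, 0.50 ± 0.05, adjusted p = 2.12e-05), Uqcr10 (0.52 ± 0.07, adjusted p = 0.000109) and Uqcrh (0.43 ± 0.06, adjusted p = 0.000262) followed by p among the members that were higher. The other higher calls were those of Cox6a1, both Atp5d probe sets named above, Uqcrq, Atp5mpl, Ndufb3, Atp5j, Ndufv3, Cox7a2, Atp5l, Ndufa7, Ndufa13, Cox7b and Cox7a2l, with differences from 0.16 for Cox7a2l to 0.47 for the Atp5d probe set 161145_f_at. On the lower side were Ndufb5 (-0.36 ± 0.05, adjusted p = 0.000166), Ndufs3 (-0.24 ± 0.05, adjusted p = 0.00322), both probe sets of Atp5g2 (-0.42 for 92570_at and -0.31 for 102134_f_at), Sdhd (-0.23), Ndufa9 (-0.24) and a probe set of Atp5c1, the central shaft of the enzyme (-0.14). Of the 25 calls 19 were kept whichever array was left out. The Atp5d probe sets 162343_f_at (0.26 ± 0.20) and 94279_at (-0.23 ± 0.17) did not pass in this mean. A test of any difference of the effect among the 5 times passed for 16 members (21.6%, against 22.2% of all probe sets), with the smallest p for Cox7a2l (adjusted p = 0.000175).

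In vector cells of the Sir2 arm, 7 of 71 members tested passed between 12 and 36 h, all higher (9.86%, against 32.1% of all probe sets, 12.4% higher and 19.7% lower). The median log2 change was 0.20 over the members and -0.02 over all probe sets. Uqcrq was at 2291, 1705 and 1969 at 12 h and at 2774, 3085 and 3191 at 36 h (0.61 ± 0.14, adjusted p = 0.00673). All 3 later arrays were above the 3 earlier ones. Ndufa3 by 96915_f_at was at 491, 343 and 473 and then at 608, 695 and 798 (0.68 ± 0.17, adjusted p = 0.00866). The dim Atp5g1 probe set 96032_at was at 40.3, 37.7 and 46.7 and then at 78.3, 53.9 and 64.6 (0.55 ± 0.13, adjusted p = 0.00806). Neither of these probe sets had groups that overlapped. The dim Ndufa3 probe set 102097_f_at did not pass (0.02 ± 0.19, adjusted p = 0.961). Ndufv1 (0.37 ± 0.11, adjusted p = 0.0279), Atp5md (0.70), Ndufb9 (0.39) and Ndufab1 (0.38) rose as well. Uqcrq, Ndufa3 (96915_f_at), Ndufv1, Ndufb9 and Ndufab1 had also risen in control cells of the TSA arm between 0 and 48 h, a different span of time. How many of all probe sets rose in both comparisons was not counted, so this overlap is not read as a result about the members. The count was 3 without vector 12 h replicate 2, 3 without vector 36 h replicate 2, 4 without vector 36 h replicate 3, 14 after median centring of each array, 7 higher and 1 lower after quantile normalization and 3 with no filter on dim probe sets.

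With Sir2, no member passed limma's test in any comparison. At 12 h 0 of 71 passed, against 5.55% of all probe sets, and 1 had an unadjusted p under 0.05. At 36 h 0 passed, against 9.26%, and 11 had an unadjusted p under 0.05. For the mean of both times 0 passed, against 12.6%, and 10 had an unadjusted p under 0.05. For the difference between the effects at both times 0 passed, against 1.76%, and 4 had an unadjusted p under 0.05. At 36 h the log2 differences of 61 of 71 probe sets were below 0, with a median of -0.18 against -0.02 over all probe sets tested. At 12 h 40 of 71 were below 0, with a median of -0.01 against 0.02. The shares of all probe sets with an unadjusted p under 0.05, or with a difference below 0, were not counted. Member counts of these 2 kinds are therefore not read as a result about the members.

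The members nearest the threshold were these. Ndufa9 was at 808, 772 and 843 with vector and at 558, 663 and 672 with Sir2 at 12 h (-0.36 ± 0.11, adjusted p = 0.0947), and for the mean of both times its difference was -0.25 ± 0.08 (adjusted p = 0.0568). At 12 h its groups did not overlap. Sdhd was at 1159, 1281 and 1380.3 with vector and at 807, 1068 and 1059 with Sir2 at 36 h (-0.39 ± 0.13, adjusted p = 0.0876), again without overlap. Ndufa1 (98117_at), a small subunit of complex I, was at 33.9, 42.4 and 56.2 and at 56.5, 65.8 and 63.9 (0.44 ± 0.14, adjusted p = 0.0832), with each Sir2 array higher. By the mean of both times Ndufb7 had -0.28 ± 0.10 (adjusted p = 0.101), at 12 h Atp5g2 (102134_f_at) had 0.31 ± 0.15 (adjusted p = 0.298), and for the difference of the effects Ndufa1 had 0.55 ± 0.20 (adjusted p = 0.228) and Cox6c, a small subunit of complex IV, had -0.46 ± 0.18 (adjusted p = 0.254). The summed myoblast and myotube markers were 30801 to 31140 with vector and 21226 to 24848 with Sir2 at 36 h, and 10251 to 11252 and 5484 to 6123 at 12 h. Of 16 marker probe sets 2 passed as higher and 7 as lower at 36 h, against 9.26% of all probe sets. At 12 h 0 were higher and 12 lower, against 5.55%. Cdh15 was at 977 to 1069 with vector and 1292 to 1405 with Sir2 at 36 h, and Myf5 at 88.8 to 95.5 and 159 to 217. The part of the markers in these member differences was not tested. A count of 1 appeared at 36 h without vector 36 h replicate 3 and for the mean without vector 12 h replicate 2.

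**Figure D4:**
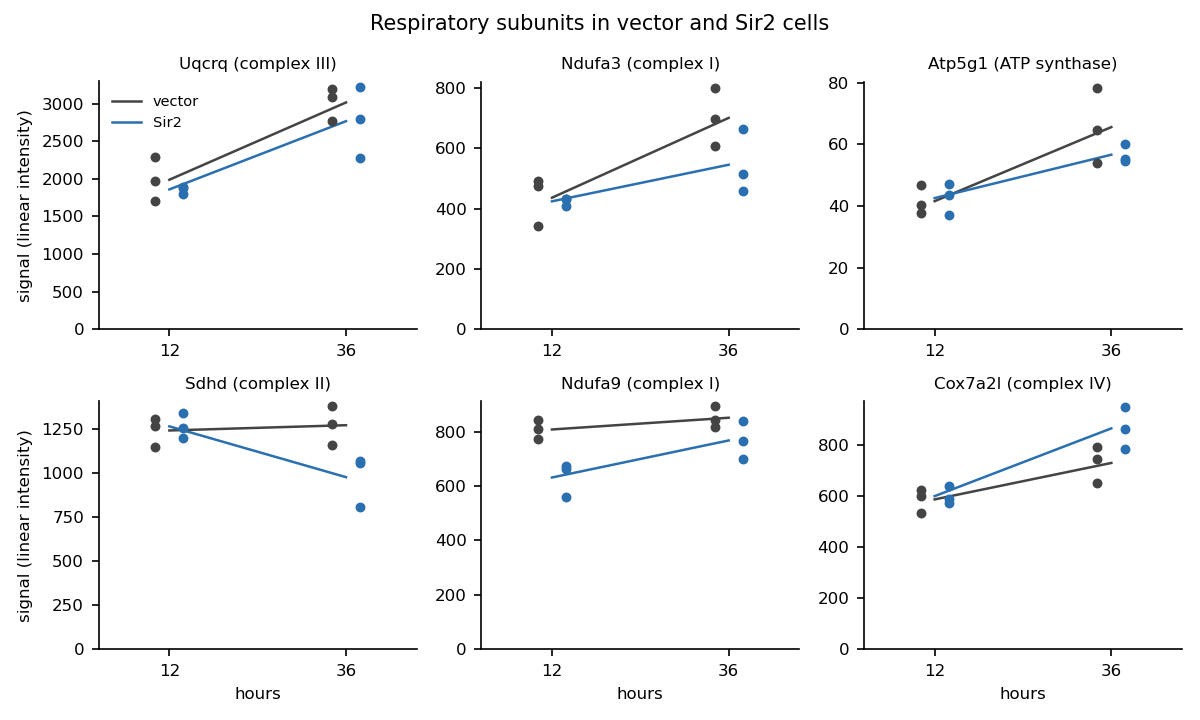
Intensity on each array of the Sir2 arm for 6 members at 12 and 36 h, with points for arrays and a line through the means of vector and of Sir2 cells. For Uqcrq the 3 vector arrays at 36 h all lie above those at 12 h, and no member passed for Sir2 against vector at an adjusted p under 0.05.

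Of the 68 genes 19 had several probe sets, and in no comparison did 2 probe sets of a gene pass in opposite directions (0 genes). Probe sets of 1 gene did not always share a call: of the 4 Atp5d probe sets tested, 2 were higher with TSA at 0 h. The suffixes f (20 of 94) and r (9) mark probe sets that the array's design built under relaxed rules or for a family of similar sequences. The calls of Ndufa3, Atp5d, Cox6a1, Ndufb5, Ndufb2, Uqcrb, Uqcrc2, Cox6b1 and Atp5md rest on such probe sets, as does that of Atp5g2 by 102134_f_at. Probe sets with the suffixes s (2) and i (3) are not plain ones either. The calls of Sdhb and Ndufa5 rest on s and that of Atp5e on i. Genes left untested in both arms included Ndufs4, Ndufa12, Cox8a and Atp5j2.

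Genes around the chain were taken from fixed lists, and their counts in control cells at 48 h are read against the 35.3% of all probe sets that passed, 16% higher and 19.3% lower. Of the muscle isoforms kept out of the rule, Cox6a2 was at -104 ± 72.0 (SD, n = 2) at 0 h and at 11691 ± 641 at 48 h, and Cox8b rose from 304 ± 39.6 to 1365 ± 80.9, so 2 of 2 tested rose. Of 17 probe sets for electron carriers and other mitochondrial genes outside the rule 2 rose and 3 fell. Those of smallest p were Coq9 (1.25) and Coq7 (-1.24), which serve the making of ubiquinone, and Etfb (0.63), part of the flavoprotein that hands electrons to it. Cytochrome c (Cycs, -0.50 ± 0.21, adjusted p = 0.0793) and cytochrome c1 (Cyc1, -0.13 by its brighter probe set) did not pass. Of 13 for assembly factors 3 rose and 0 fell: Surf1 (525 ± 66.9 at 0 h and 1604 ± 111 at 48 h) and the copper chaperone Cox17 (1.09), both needed to build complex IV, and Tmem70 (0.37), needed to build ATP synthase. Of 19 for the tricarboxylic acid cycle and pyruvate dehydrogenase 0 rose and 3 fell, namely Suclg2 (-0.49), Ogdh (-0.72) and Idh2 (-0.49), while citrate synthase (Cs, -0.06 ± 0.10) did not pass.

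Among 13 probe sets for regulators of mitochondrial genes 1 rose, Yy1 (0.71), and 1 fell. A dim probe set of Gabpa, the Ets factor named above, fell from 240 ± 8.62 to -29.0 ± 128 (SD, n = 2), and the brighter one, at 608 ± 79.2 and then 521 ± 112, did not pass. The estrogen-related receptor gene Esrra did not pass (0.35 ± 0.23), Ppargc1a and Tfam were too dim to be tested, and Nrf1 was not measured. Of 89 probe sets for the mitochondrial ribosome and import 17 rose and 14 fell, a share near that of all probe sets, with the smallest p for the ribosomal proteins Mrpl18 (-1.47 by its brighter probe set), Mrps10 (1.14) and Mrpl23 (1.11). Of 10 for uncoupling and antioxidant proteins 4 rose and 2 fell, with the smallest p for Immt (0.72 by its brighter probe set), Gpx4 (0.76) and Prdx3 (0.63). A dim probe set of Immt passed in the opposite direction (-0.58).

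With TSA, over the mean of the 5 times, the background was 22% of all probe sets, 10.2% higher and 11.9% lower. Cox6a2 was lower in that mean (-0.67 ± 0.04, adjusted p = 1.88e-07), and 24 h carried it: Cox6a2 was at 1118 ± 2.05 (SD, n = 2) in control cells and at -280 ± 146 with TSA at 24 h. At 0, 4 and 12 h it lay below 0 in both groups, where values were set to 0 and so show no spread, which can make these p-values too small, and at 48 h it did not pass (-0.16 ± 0.09, adjusted p = 0.232). Of the 17 probe sets for electron carriers and other mitochondrial genes outside the rule, 3 were lower, Vdac3 (-0.43), Etfa (-0.25) and Coq3 (-0.34). In that list, which is not made up of electron carriers alone, 2 were higher, Cycs (0.37 ± 0.09, adjusted p = 0.0118) and a dimmer probe set of Cyc1 (0.53). Regulators had 0 higher and 2 lower of 13: a probe set of Gabpb1 (-0.66), whose other probe set did not pass (-0.08), and Myc (-0.26). In that comparison 5 of 89 ribosome and import probe sets were higher and 19 lower, with the smallest p for Mrpl23 (-0.41), the chaperone Hspa9 (-0.44) and Mrpl34 (0.36). Assembly factors had 2 in each direction of 13, with Tmem70 (0.30) and Cox17 (0.27) higher and Phb2 (-0.23) and Lrpprc (-0.26) lower. The tricarboxylic acid cycle had 0 higher and 1 lower of 19, Suclg2 (-0.47), and the uncoupling and antioxidant proteins had 0 in either direction of 10.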

How the data were processed

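RNA from C2C12 cells was measured on 32 Affymetrix arrays, and treatment and time from the labels set the groups. Each probe set had 1 deposited intensity per array on a linear scale. MAS5 made those of the Sir2 arm, per the submitters' processing notes. For the TSA arm the tool is not stated in the labels. In the TSA arm 21.0% to 24.2% of values were at or below 0, and each array had a common trimmed mean within its arm.

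The 66 control probe sets of the maker were dropped from 12488. Of the others 10833 had 1 gene symbol, 396 several and 1193 none, by the platform annotation, updated through Entrez identifiers. Values below 0 were set to 0, and log2 was taken of the deposited intensities plus a pseudocount, 137.7 for the TSA arm and 8.82 for the Sir2 arm, which compresses changes of dim probe sets. Probe sets with a mean of at least the 40th percentile of such means in an arm (144.9 and 31.1) were tested. Each arm was fitted alone with limma 3.58.1 in R 4.3.3 (1 mean per group, eBayes, 10 and 8 residual degrees of freedom), with Benjamini-Hochberg adjustment over all 7453 probe sets tested. The fit was tested on simulated data. Levels are compared neither between arms nor between probe sets.

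The members, the lists of other genes and the comparisons were chosen with earlier results of these data known. Members were named with values by this rule: the 4 of smallest p that passed in each direction of a comparison, the 2 of smallest p where none passed, and fixed groups of core subunits and isoforms; the 3 genes of smallest p that passed in each other list; further members that passed are named in part, chosen after their values were seen. Alternatives were quantile normalization, median centring, other pseudocounts and filters, a replicate block, a term for the arrays with a b in the title, fits restricted to the compared groups, and leaving out each array. Precision is limited by how few arrays there were. Figures were drawn with matplotlib 3.10.9 under Python 3.11.15.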

Additional observations from a re-analysis of the deposited data

Results flagged for a closer look

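The TSA effect differed between 48 and 0 h for 22 member probe sets by a test of the difference itself (limma, adjusted p under 0.05). Those of smallest p in each direction were a downward shift for Cox7a2l (-1.45 on the log2 scale), Atp5d by probe set 161494_f_at (-1.94), Uqcrq (-1.09) and Ndufa7 (-0.88), and an upward shift for Sdhd (1.06), Ndufs3 (0.78), Ndufb8 (0.85) and Atp5a1 (0.78). The Atp5d probe set 161145_f_at also shifted downward (-1.16), while 162343_f_at (-0.93) and 94279_at (0.10) of this gene did not pass. Each group had 2 arrays.

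Across all 5 times, the TSA effect differed for 16 member probe sets by an F test in limma, with the smallest adjusted p for Cox7a2l (0.000175), Uqcrq (0.00176), Ndufv3 (0.00188) and Atp5d by probe set 161145_f_at (0.00204).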

How the results depend on the processing

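No followed call turned its direction under any alternative run. The followed calls were members that had passed, those of smallest p in each direction of a comparison. They were picked by p in the same data, so this check could hardly have shown a turn. The direction of members that had not passed, of the Sir2 differences and of the medians was not checked. Of the counts of members called, 117 under alternatives other than leaving out an array were within 1.5 times the main count and 31 were not. When 1 array was left out, 92 counts were within that range and 38 were not. The followed calls were counted once per member, comparison and alternative, so these numbers exceed the number of members. Of such checks 502 kept the call and 65 lost it under the other alternatives. With 1 array left out, 374 checks kept the call and 62 lost it.

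Fits of only the groups compared gave 0 calls for control cells at 4, 12 and 24 h, 11 at 48 h, 4 for TSA cells at 48 h against 0 h, 13 for TSA at 0 h, 0 for TSA at 4, 12, 24 and 48 h, and 8 for the difference of the TSA effect between 48 and 0 h. Control cells at 4 h had 0 calls with the lower pseudocount, no filter or the 60th percentile filter. Control cells at 12 h had 2 with the higher pseudocount or no filter and 3 with the 60th percentile filter. TSA at 12 h had 2 with no filter and 4 with the 60th percentile filter, and TSA at 24 h had 1 after median centring or with the lower pseudocount. Vector cells had 14 after median centring, 3 with no filter and 11 with the 60th percentile filter. Sir2 had 1 call at 36 h with the 60th percentile filter, and 1 for the mean with the higher pseudocount or the 60th percentile filter. The cause of these shifts was not tested.

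Deviations from the group mean correlated at -0.10 to 0.23 (TSA arm) or -0.31 to 0.12 (Sir2 arm) between same-numbered arrays at 1 time. Between arrays of different number they correlated at -0.23 to 0.10 and at -0.19 to 0.39. With 2 arrays in a group the deviations mirror each other, so in the TSA arm this check cannot settle pairing. In the Sir2 arm the titles carry the letters a, b and c after a number that all share, and these letters were read as replicate numbers. What that shared number stands for is not stated. The replicate numbers were not taken to pair arrays in the main fit. With the replicate number as a block there were 0, 0, 2 and 26 calls for control cells at 4, 12, 24 and 48 h, 19 for TSA cells at 48 h against 0 h, 19, 12, 1, 1 and 14 for TSA at 0, 4, 12, 24 and 48 h, 23 for its mean, 14 for any difference between times, 19 for the difference between 48 and 0 h, 7 for vector cells and 0 for each Sir2 comparison.

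Leaving out 1 array gave 0 to 0 calls for control cells at 4 and at 12 h, 0 to 4 at 24 h and 15 to 23 at 48 h, 8 to 16 for TSA cells at 48 h against 0 h, 13 to 15 for TSA at 0 h, 10 to 12 at 4 h, 0 to 0 at 12 h, 0 to 1 at 24 h and 7 to 10 at 48 h, 19 to 26 for its mean, 12 to 17 for any difference between times, 12 to 20 for the difference between 48 and 0 h, 3 to 10 for vector cells, 0 to 0 for Sir2 at 12 h and for the difference of its effects, and 0 to 1 for Sir2 at 36 h and for its mean. Dim probe sets limit what could be seen: of 94 member probe sets, 20 went untested in one arm (TSA) and 23 in the other (Sir2).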
